A study of Mus musculus with 15 samples.

Results

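The 10 genes described here encode carriers and enzymes that take glucose into a cell, break it down to pyruvate and send the product out as lactate. They are Slc2a1, Hk2, Pfkp, Pfkfb3, Aldoa, Pgk1, Eno1, Pkm, Ldha and Slc16a3, a list of names given for the pathway. The deposited count table held 33340 genes, and 17457 of them had enough reads to be tested. The 10 symbols matched 11 rows of the table by Ensembl identifier in the GENCODE M21 annotation, because Aldoa is listed under a pair of identifiers. All 10 genes passed the filter on low counts, with Aldoa read from ENSMUSG00000030695, and the other Aldoa row had too few reads to be tested.

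Glycolysis splits glucose in the cytosol. Its early steps, from hexokinase to aldolase, consume ATP, and its later steps, from glyceraldehyde-3-phosphate dehydrogenase to pyruvate kinase, return ATP and leave pyruvate. Lactate dehydrogenase turns pyruvate into lactate and regenerates the NAD+ that the pathway needs, and monocarboxylate carriers of the Slc16 family move lactate across the plasma membrane. In the lung, the pathway is studied in activated macrophages and in fibroblasts that deposit matrix, and the hypoxia-inducible factor Hif1a is a well-known activator of many of its genes.

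The libraries came from whole lung of C57BL/6 mice that were given bleomycin, a DNA-damaging drug used to scar the rodent lung. The mice were male and 10 to 12 weeks old, were anaesthetised with Avertin, and received 5 U/kg once through the trachea. Day 0 was the untreated control (n = 4), and the bleomycin groups were taken on day 7 (n = 4), day 14 (n = 4) and day 21 (n = 3). Day 0 replicate 4 is titled as a control although its treatment field names bleomycin, and the series text speaks of 3 replicates a day. The paper speaks of biological replicates, but no label says that the libraries of a day came from separate animals. The p-values here therefore measure the spread between these libraries, and no group was given vehicle alone.

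Libraries held 15652008 to 18020661 counts assigned to genes, and the smallest number of counts for any of the 10 genes in a library was 211, for Slc16a3. Markers of alveolar type 1 cells, alveolar type 2 cells and endothelium (5 genes each) were present in every library, which fits the whole-lung label, although the summed type 2 level was 23750 to 33640 CPM (counts per 1000000 counts of a library) on day 0 and 4026 to 8853 CPM on day 21. Counts of the 16 mitochondrial genes, as a share of all counts, split the libraries within days. It was 2.28% and 2.31% in day 0 replicates 1 and 2 and 4.22% and 4.04% in replicates 3 and 4. All day 7 libraries and day 14 replicate 1 had 2.03% to 2.15%, the other day 14 libraries had 3.73% to 4.14%, and day 21 libraries had 2.66% to 4.01%. The part of this share in the results below was not tested beyond the values given beside them.

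Pgk1, Eno1 and Pkm were called higher than day 0 on all 3 days after bleomycin, Ldha was called higher on days 7 and 14, and Pfkfb3 was called lower on those days. A gene is called here when its Benjamini-Hochberg adjusted p over all 17457 genes in edgeR's quasi-likelihood test was under 0.05 and its fold change was over 1.5. On day 7, 4 of 10 genes were called higher, where 8.78% of all tested genes were called higher. Pfkfb3 was the 1 gene of 10 called lower, where 7.36% of all tested genes were. On day 14 the calls fell on those 5 genes again, 4 higher against 12.0% of all tested genes and 1 lower against 11.2%. On day 21, Slc2a1, Pgk1, Eno1 and Pkm were called higher, 4 of 10 against 12.4%, and 0 of 10 were called lower against 10.1%. Hk2, Pfkp, Aldoa and Slc16a3 were called on no day. The median log2 fold change of the 10 genes was 0.36, 0.32 and 0.33 on days 7, 14 and 21, beside medians of 0.01, 0.02 and 0.02 over all tested genes. Because these are libraries of whole tissue, fewer cells of a type and less RNA per cell cannot be told apart in any of these values.

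**Figure D1:**
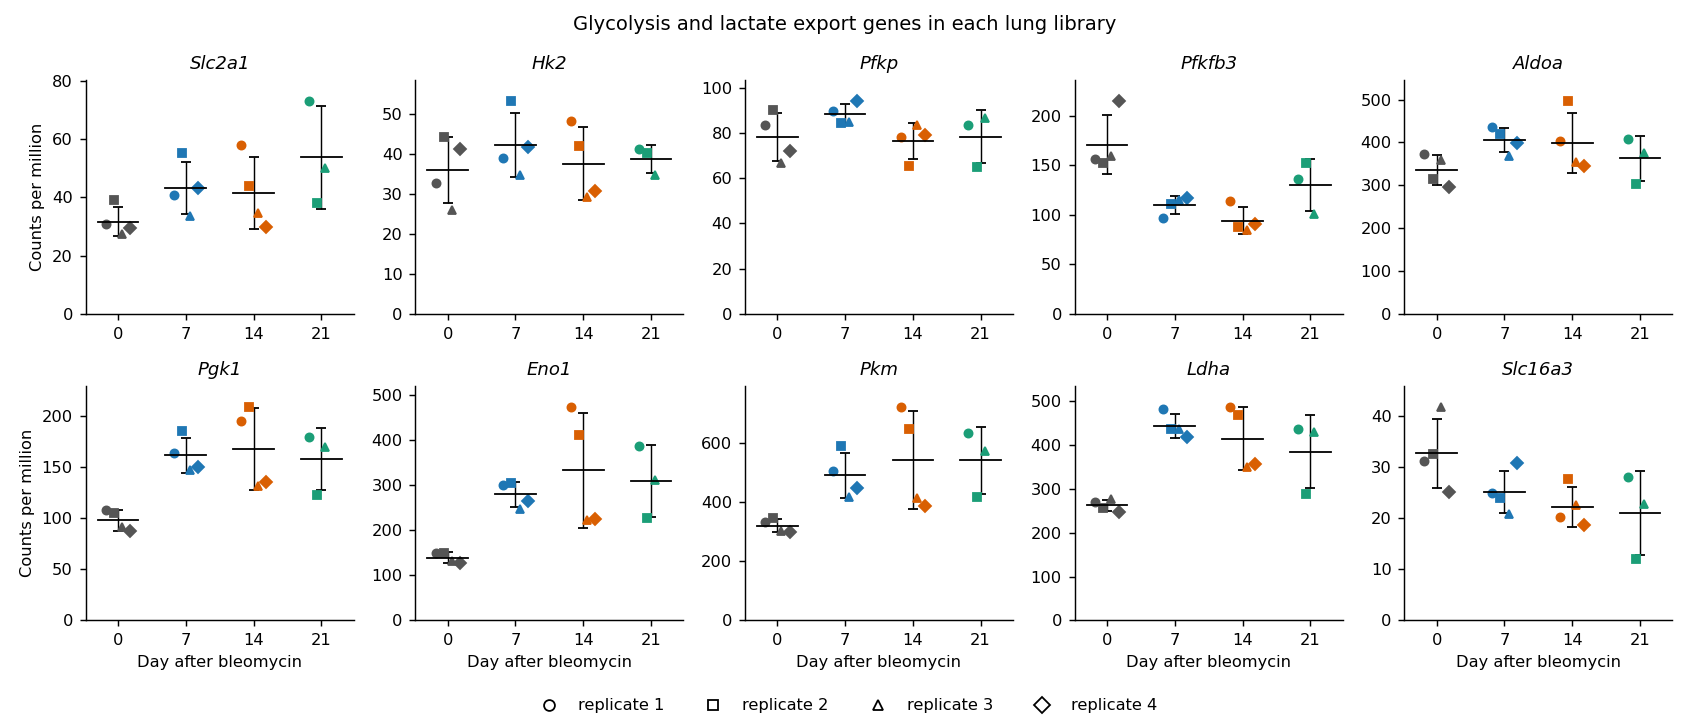
Level (CPM) of the 10 genes in each of the 15 libraries, by day after bleomycin. Each symbol is 1 library, its shape gives the replicate number, and the bar and whiskers are the mean and SD of a day. For Pgk1, Eno1, Pkm and Ldha every library after bleomycin lies above every day 0 library, and for Pfkfb3 every day 7 and day 14 library lies below.

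The windows around the start sites of the 4 genes that were called higher on days 7 and 14 are shown first, followed by Pfkfb3 and by Ldhb, the other lactate dehydrogenase gene, which fell. Each is 300 bases on GRCm38.p6 from RefSeq, from 250 bases before to 50 bases after the first listed start, written 5′ to 3′ on the strand of the gene. Capitals mark the 5-letter core that the hypoxia-inducible factors recognise, ACGTG or GCGTG, on either strand.
Pgk1 (chrX:106186850-106187149, plus strand): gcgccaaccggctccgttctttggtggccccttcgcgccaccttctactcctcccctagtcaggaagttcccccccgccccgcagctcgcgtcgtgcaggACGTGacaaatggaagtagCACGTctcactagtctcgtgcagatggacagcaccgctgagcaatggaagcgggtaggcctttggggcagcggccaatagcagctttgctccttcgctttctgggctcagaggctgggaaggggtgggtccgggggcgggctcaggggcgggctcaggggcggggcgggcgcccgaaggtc
Eno1 (chr4:150236458-150236757, plus strand): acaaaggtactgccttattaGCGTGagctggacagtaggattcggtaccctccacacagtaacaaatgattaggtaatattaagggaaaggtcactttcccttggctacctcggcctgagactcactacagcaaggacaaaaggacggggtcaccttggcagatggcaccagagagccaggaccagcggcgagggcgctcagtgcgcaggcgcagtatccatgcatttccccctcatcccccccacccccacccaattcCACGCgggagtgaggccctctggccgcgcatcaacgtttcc
Pkm (chr9:59656326-59656625, plus strand): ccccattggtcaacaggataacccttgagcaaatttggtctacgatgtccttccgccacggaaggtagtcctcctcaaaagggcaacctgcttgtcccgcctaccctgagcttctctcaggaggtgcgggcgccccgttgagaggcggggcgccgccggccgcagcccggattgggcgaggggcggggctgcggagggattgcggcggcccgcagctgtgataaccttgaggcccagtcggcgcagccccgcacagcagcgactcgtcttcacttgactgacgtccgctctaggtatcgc
Ldha (chr7:46845554-46845853, plus strand): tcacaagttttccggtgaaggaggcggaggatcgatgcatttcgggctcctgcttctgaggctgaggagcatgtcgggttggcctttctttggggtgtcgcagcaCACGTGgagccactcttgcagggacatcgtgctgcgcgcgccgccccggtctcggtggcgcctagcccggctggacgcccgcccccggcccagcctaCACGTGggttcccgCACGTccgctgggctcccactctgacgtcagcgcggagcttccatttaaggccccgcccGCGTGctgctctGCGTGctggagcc
Pfkfb3 (chr2:11553880-11554179, minus strand): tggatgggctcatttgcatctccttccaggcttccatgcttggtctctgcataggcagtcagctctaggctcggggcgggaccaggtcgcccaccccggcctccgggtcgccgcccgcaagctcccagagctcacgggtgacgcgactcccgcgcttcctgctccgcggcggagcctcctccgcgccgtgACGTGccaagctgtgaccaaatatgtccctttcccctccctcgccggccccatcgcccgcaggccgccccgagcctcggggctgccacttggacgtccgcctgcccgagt
Ldhb (chr6:142507908-142508207, minus strand): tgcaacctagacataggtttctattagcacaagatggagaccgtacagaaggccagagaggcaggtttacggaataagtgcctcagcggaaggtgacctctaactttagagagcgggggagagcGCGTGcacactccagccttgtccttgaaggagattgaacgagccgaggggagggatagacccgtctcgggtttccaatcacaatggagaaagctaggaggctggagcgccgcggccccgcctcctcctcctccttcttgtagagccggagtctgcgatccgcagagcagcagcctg
The core occurred 7 times in the Ldha window, counting both strands, and 2 pairs of those matches overlap in the palindrome CACGTG, which other factors also bind. It occurred 2 times in the windows of Pgk1 and Eno1, 1 time in those of Pfkfb3 and Ldhb, and 0 times in the first Pkm window. All 10 genes matched the RefSeq table by symbol. Of their first windows, 8 held the core, and so did 43.8% of the first windows of all 27025 symbols in the table. The 2 genes without it in the first window were Aldoa and Pkm, and for both another listed start held it. Both forms of the core contain the letter pair CG. The 8 windows with the core held 14 to 36 such pairs, and those without it held 0 (Aldoa) and 27 (Pkm). The comparison with all symbols did not take this pair into account. Ldha and Pfkp had 3 or more matches, as had 9.11% of the first windows of all symbols. A match is a description of the letters and not a bound site, and its part in any change was not tested.

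Slc2a1 (ENSMUSG00000028645, chromosome 4, 119108711 to 119137983) encodes the glucose carrier GLUT1. Its level was 30.9, 39.0, 27.4 and 29.4 CPM in the day 0 libraries, 40.8, 55.3, 33.5 and 43.1 CPM on day 7, 57.9, 43.9, 34.5 and 29.9 CPM on day 14 and 73.0, 38.0 and 50.1 CPM on day 21. The days overlap, and the replicate 1 libraries of days 14 and 21 were the highest. The fitted log2 fold change against day 0 was 0.45 ± 0.22 (SE) on day 7 (adjusted p = 0.156), 0.39 ± 0.22 on day 14 (adjusted p = 0.196) and 0.76 ± 0.24 on day 21 (adjusted p = 0.0256), all from edgeR. Only the day 21 value was called, and that call was lost in 5 of 7 edgeR fits that left out 1 library (day 0 replicates 1, 3 and 4, and day 21 replicates 1 and 3), with log2 values of 0.44 without day 21 replicate 1 to 0.92 without day 21 replicate 2.
Slc2a3, which encodes the high-affinity carrier GLUT3 known from neurons and leukocytes, moved the other way. It stood at 25.0, 33.1, 21.4 and 14.8 CPM on day 0 and at 7.84 to 15.4 CPM in the libraries after bleomycin, so that only day 0 replicate 4 and day 14 replicate 3 overlap. Slc2a3 was called lower on all 3 days, by log2 changes of -1.05, -1.10 and -1.14. Among libraries over 3.5% mitochondrial counts its day 14 change was -0.71 and was not called (adjusted p = 0.132 in edgeR). Within each library the log2 ratio of Slc2a1 to Slc2a3 counts was 0.47 ± 0.35 (SD, n = 4) on day 0 and 1.90 ± 0.39 (n = 4), 1.91 ± 0.66 (n = 4) and 2.31 ± 0.41 (n = 3) on the later days, with every later library above every day 0 library. The exact two-sided permutation p was 0.0286, 0.0286 and 0.0571, and adjusted over all ratio tests 0.137, 0.137 and 0.152. The summed level of 5 neutrophil markers also fell, from 388.0 to 864.8 CPM on day 0 to 73.9 to 434.2 CPM afterwards, and its part in the Slc2a3 result was not tested.

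Hk2 (ENSMUSG00000000628, chromosome 6, 82725025 to 82774454) encodes the inducible hexokinase, which traps glucose as its phosphate. It ranged from 25.9 to 44.1 CPM on day 0, from 34.7 to 53.2 CPM on day 7, from 29.3 to 48.2 CPM on day 14 and from 34.8 to 41.4 CPM on day 21. These ranges overlap on every day, and its log2 changes were 0.23, 0.06 and 0.10 with adjusted p between 0.402 and 0.839. Hk1, the widely expressed hexokinase, had log2 changes of 0.35, 0.28 and 0.39, which passed the adjusted p on days 7 and 21 (0.0374 and 0.0256) and stayed under the fold limit. Hk3, a hexokinase of myeloid cells, rose on days 14 and 21, by 0.84 and 0.80.

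Pfkp (ENSMUSG00000021196, chromosome 13, 6579768 to 6648777) encodes the platelet form of phosphofructokinase, the committed step. Its libraries held 66.7 to 90.0 CPM on day 0, 84.3 to 94.1 CPM on day 7, 65.2 to 83.5 CPM on day 14 and 64.8 to 86.6 CPM on day 21. Its log2 changes were 0.18, -0.03 and 0.00, and the sign of the last 2 turned with the scaling or the libraries used. Pfkp overlaps Pitrm1 on the opposite strand over a stretch of 748 bases, and Pitrm1 had 43.3% as many counts as Pfkp. The strand setting of the counting is not given in the sources used here, so reads of the overlap cannot be assigned with certainty. The liver form Pfkl had log2 changes of 0.14, -0.07 and -0.07, and the muscle form Pfkm had -0.44, -0.46 and -0.20, of which that of day 14 passed the adjusted p (0.0409) and none the fold limit.

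Pfkfb3 (ENSMUSG00000026773, chromosome 2, 11471433 to 11554077) encodes the enzyme that makes fructose-2,6-bisphosphate, the strongest activator of phosphofructokinase. It was at 156.4, 152.7, 159.9 and 215.1 CPM on day 0, and the fourth of these libraries stood apart. It was at 96.8, 111.1, 114.6 and 117.5 CPM on day 7, at 113.8, 88.3, 84.4 and 91.0 CPM on day 14 and at 136.8, 152.7 and 101.4 CPM on day 21. All day 7 and day 14 libraries lay below all day 0 libraries, and so did the day 21 libraries, the closest by a margin smaller than the rounding. The log2 change was -0.64 ± 0.15 on day 7 (adjusted p = 0.00594), -0.86 ± 0.15 on day 14 (adjusted p = 0.00044) and -0.39 ± 0.16 on day 21 (adjusted p = 0.072), by edgeR's quasi-likelihood test. Without day 0 replicate 4 the day 7 change was -0.53, which passed the adjusted p (0.0214) and not the fold limit. Of the other genes of this enzyme family, Pfkfb2 was called lower on day 21 by -0.92.

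Aldoa (ENSMUSG00000030695, chromosome 7, 126795234 to 126800751) encodes the aldolase that splits the phosphorylated sugar. Its mean level per length was the highest of the 10 genes on every day, at 115.3 ± 12.3 CPM per kb (SD, n = 4) on day 0. Its CPM ranged from 296.3 to 372.7 on day 0, from 368.9 to 435.3 on day 7, from 344.2 to 496.8 on day 14 and from 304.3 to 408.7 on day 21. The log2 changes of 0.27, 0.25 and 0.11 were not called, with adjusted p of 0.149, 0.168 and 0.604. Aldoc, the brain aldolase, averaged 7.18 CPM on day 0 and was called on day 14, at 0.84, with 3 of 4 libraries above day 0; 3 of 8 fits without 1 library lost that call.

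Pgk1 (ENSMUSG00000062070, chromosome X, 106187100 to 106203699) encodes phosphoglycerate kinase, the first ATP-forming step. Its level was 107.8, 105.4, 90.9 and 86.9 CPM on day 0, 163.3, 185.0, 147.4 and 149.8 CPM on day 7, 195.0, 208.2, 131.7 and 134.9 CPM on day 14 and 179.6, 123.1 and 169.7 CPM on day 21. No library after bleomycin overlapped day 0. The fold changes were 1.65 on day 7 (log2 0.72 ± 0.16, adjusted p = 0.00547), 1.71 on day 14 (0.78 ± 0.16, adjusted p = 0.00204) and 1.61 on day 21 (0.69 ± 0.17, adjusted p = 0.00765), from edgeR. The day 7 call was lost with the mitochondrial share in the model. Without day 21 replicate 1 the day 21 change was 0.55 and was not called.

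Eno1 (ENSMUSG00000063524, chromosome 4, 150236721 to 150248879) encodes alpha-enolase, which forms phosphoenolpyruvate, and it changed most among the 10 genes. It was at 150.7, 149.8, 131.2 and 126.5 CPM on day 0 and at 301.0, 306.0, 246.5 and 266.0 CPM on day 7. It was at 472.8, 410.9, 222.7 and 225.7 CPM on day 14 and at 387.7, 227.9 and 311.4 CPM on day 21. Every later library was above every day 0 library, and the day 14 libraries fell into a high pair, replicates 1 and 2, and a low pair. Its level was 2.01, 2.39 and 2.21 times that of day 0 on the 3 days, with adjusted p of 0.00532, 0.000671 and 0.00222 in edgeR, and the log2 changes of the last 2 days were 1.25 ± 0.23 and 1.15 ± 0.24. The day 7 call was lost with the mitochondrial share in the model. Eno1b, a gene with a near-identical stretch of 1736 bases, rose with log2 changes of 0.92, 1.21 and 1.09. The authors excluded reads that map to several places, and Eno1b together with a second copy held 3.82% as many counts as Eno1, so the part of either that belongs to the other is uncertain.

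Pkm (ENSMUSG00000032294, chromosome 9, 59656368 to 59679375) encodes muscle pyruvate kinase, and a count for the whole gene does not separate its M1 and M2 splice forms. Its level was 332.2, 345.9, 303.0 and 300.8 CPM on day 0, 507.9, 591.6, 419.5 and 450.5 CPM on day 7, 722.1, 649.2, 415.4 and 389.6 CPM on day 14 and 637.2, 417.3 and 574.0 CPM on day 21. Again no later library overlapped day 0, and replicates 1 and 2 were the high pair on day 14. The fold changes were 1.54 (adjusted p = 0.0301), 1.70 (adjusted p = 0.00737) and 1.69 (adjusted p = 0.0122) in edgeR. The day 7 fold lies just above the limit of 1.5, and the call was lost in 5 of 8 fits that left out 1 library (day 0 replicates 1, 3 and 4, and day 7 replicates 1 and 2), with log2 values of 0.52 to 0.69 over all 8. The day 14 call was lost without day 14 replicate 1, and the day 21 call without day 21 replicate 1 or 3. Gm49759, which overlaps Pkm on the same strand, and a copy elsewhere held 4.83% as many counts. Pklr, the liver and red-cell kinase gene, had at most 14 counts in a library and was not tested.

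Genes of neighbouring steps were measured as well. Gapdh, glyceraldehyde-3-phosphate dehydrogenase, stood at 55.0 to 60.3 CPM on day 0 and at 84.6 to 130.9 CPM afterwards, and was called higher on all 3 days with log2 changes of 0.93, 0.88 and 0.77. Pgam1, phosphoglycerate mutase, stood at 60.4 to 83.8 CPM on day 0 and at 110.5 to 164.8 CPM afterwards, and was also called on all 3 days with 0.81, 0.91 and 0.86. Gpi1, the isomerase (0.14, 0.24 and 0.24), and Tpi1, the triosephosphate isomerase (0.37, 0.23 and 0.20), were called on no day. The muscle forms of 2 later steps were called on no day either, with log2 changes of -0.83, -0.90 and -0.41 for Eno3 and 0.41, 0.18 and 0.59 for Pgam2. Cardiac muscle markers summed to 250.3 and 177.1 CPM in day 0 replicates 3 and 4, 586.5 CPM in day 7 replicate 4 and 700.6 CPM in day 21 replicate 1, and to 15.2 to 54.4 CPM in the other 11 libraries. Skeletal muscle markers, at 2.45 to 17.1 CPM in sum, were highest in the same 4 libraries. Eno3 was highest in those 4 (28.5, 21.5, 16.8 and 18.4 CPM, and at most 12.6 CPM elsewhere), Pgam2 was highest in the last 2 of them (10.9 and 9.96 CPM), and Pfkm in day 0 replicates 3 and 4 (30.4 and 35.8 CPM). The part of muscle in these 3 genes' values was not tested.

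**Figure D2:**
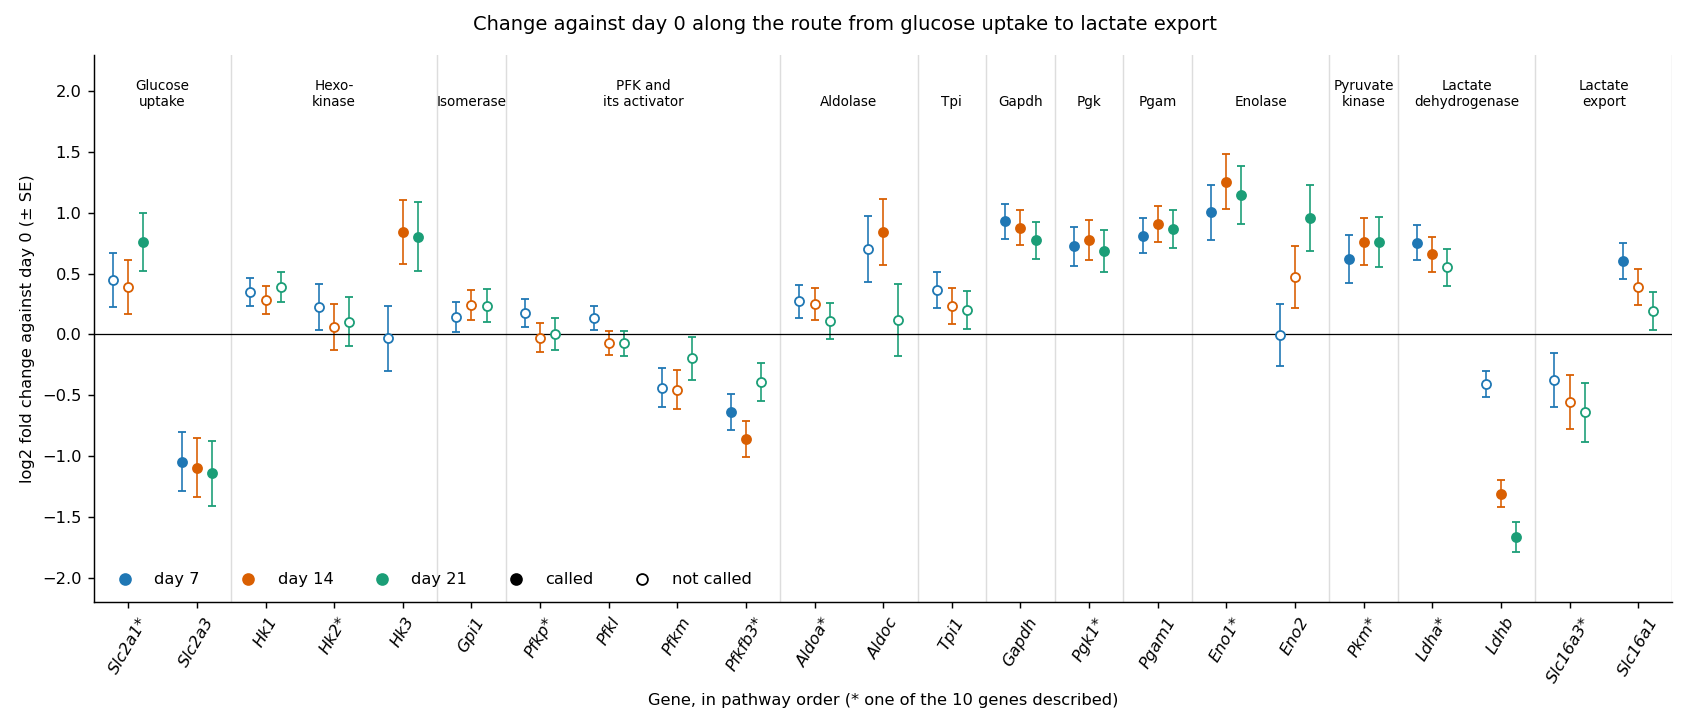
Log2 fold change against day 0 with its standard error for each gene in the order of the pathway, from glucose uptake at the left to lactate export at the right, on days 7, 14 and 21. Filled points were called (adjusted p under 0.05 and fold change over 1.5) and open points were not; from Gapdh to Pkm the filled points lie above 0 at every step, while Slc2a3, Pfkfb3 and Ldhb have filled points below 0.

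Ldha (ENSMUSG00000063229, chromosome 7, 46841475 to 46855627) encodes the subunit of lactate dehydrogenase known for making lactate from pyruvate. It was at 268.9, 257.2, 275.6 and 247.3 CPM on day 0, at 481.1, 437.0, 435.5 and 417.2 CPM on day 7, at 485.3, 468.2, 348.9 and 355.6 CPM on day 14 and at 436.6, 287.8 and 428.4 CPM on day 21. Every later library exceeded day 0, although day 21 replicate 2 did so narrowly. The fold changes were 1.69 on day 7 (log2 0.76 ± 0.14, adjusted p = 0.00195) and 1.58 on day 14 (0.66 ± 0.14, adjusted p = 0.00257) by edgeR's test. On day 21 the fold of 1.47 passed the adjusted p (0.0135) and not the fold limit. The day 14 call was lost without day 14 replicate 1 or 2, and a day 21 call was gained without day 21 replicate 2 (log2 0.68).

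Ldhb (ENSMUSG00000030246, chromosome 6, 142490249 to 142507957) encodes the heart-type subunit, which favours the use of lactate. Its level was 170.3, 181.1, 163.5 and 144.8 CPM on day 0, 131.0, 108.6, 134.5 and 123.1 CPM on day 7, 63.1, 62.6, 63.0 and 77.6 CPM on day 14 and 57.3, 51.5 and 47.0 CPM on day 21. No 2 days overlapped. Against day 0 the log2 change was -0.41 ± 0.11 on day 7, which passed the adjusted p (0.0131) and not the fold limit, and -1.31 ± 0.11 on day 14 and -1.67 ± 0.12 on day 21, both called. Of the named genes of the pathway, Ldhb had the smallest adjusted p on days 14 and 21, at 1.81e-06 and 9.43e-07 in edgeR.

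Set per length, Ldha made up 43.1% ± 2.1 (SD, n = 4) of the sum of both genes on day 0, 62.9% ± 2.2 (n = 4) on day 7, 74.4% ± 4.8 (n = 4) on day 14 and 77.4% ± 4.4 (n = 3) on day 21. In counts, Ldha exceeded Ldhb in every day 0 library, at log2 ratios of 0.51 to 0.77. Which gene was the larger on day 0 therefore depends on the exon lengths used, 3310 bases for Ldha and 1570 for Ldhb. The summed CPM of both genes was 427.2 ± 23.4 on day 0, 567.0 ± 32.8 on day 7, 481.1 ± 68.5 on day 14 and 436.1 ± 84.4 on day 21. The log2 ratio of Ldha to Ldhb counts within a library does not depend on library scaling, and it was 0.67 ± 0.12 on day 0. It was higher by 1.16 on day 7, by 1.95 on day 14 and by 2.19 on day 21, in 4 of 4, 4 of 4 and 3 of 3 libraries. The exact two-sided permutation p was 0.0286 on days 7 and 14 and 0.0571 on day 21, the smallest that 4 against 4 and 4 against 3 libraries allow, and adjusted over the 24 ratio tests made it was 0.137, 0.137 and 0.152, so that no ratio test passed 0.05 after adjustment.

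**Figure D3:**
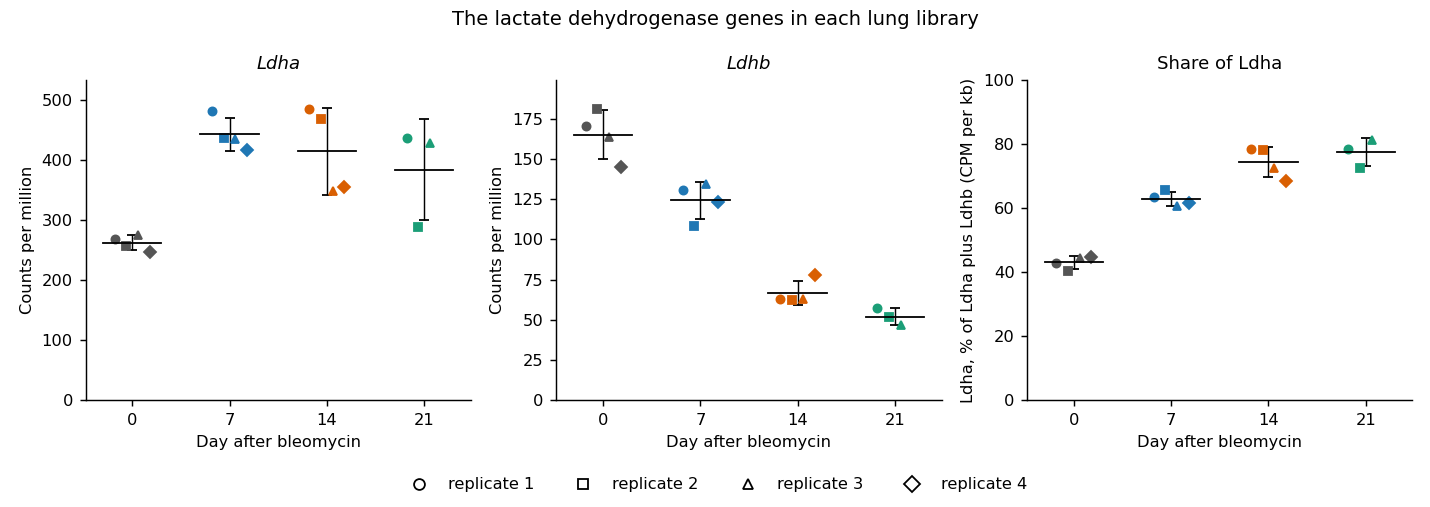
Level (CPM) of Ldha and of Ldhb in each library, and the share of Ldha in the sum of both after dividing by exon length, by day. Bars and whiskers are the mean and SD. The share of Ldha is 40.3% to 44.8% in the day 0 libraries and 60.6% to 81.2% in the libraries after bleomycin. Without division by exon length, Ldha is the larger in every library.

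Slc16a3 (ENSMUSG00000025161, chromosome 11, 120948480 to 120960868) encodes MCT4, the carrier known for lactate export from glycolytic cells, and it was called on no day. It was at 31.2, 32.5, 41.6 and 25.2 CPM on day 0, at 24.9, 23.9, 20.9 and 30.7 CPM on day 7, at 20.3, 27.6, 22.5 and 18.6 CPM on day 14 and at 28.1, 12.0 and 22.7 CPM on day 21. The groups overlap through 1 library of each later day, and most later libraries lay below the day 0 range. The log2 changes of -0.38 ± 0.22, -0.55 ± 0.22 and -0.64 ± 0.24 had adjusted p of 0.223, 0.0669 and 0.0578 in edgeR, none under 0.05. DESeq2 called the day 21 value (log2 -0.66, adjusted p = 0.0312), as did 4 other settings, and so did leaving out day 0 replicate 4 (-0.78, adjusted p = 0.0339 in edgeR) or day 21 replicate 1 (-0.94, adjusted p = 0.0166). Leaving out day 21 replicate 2, which held the lowest level, gave -0.40. The day 14 value was called without day 0 replicate 4 (-0.68, adjusted p = 0.0411 in edgeR) or day 14 replicate 2 (-0.69, adjusted p = 0.0427).
Slc16a1, the widely expressed carrier MCT1, had 36.5 to 57.2 CPM on day 0 and 53.7 to 84.2 CPM on day 7. It was called higher on day 7 (log2 0.60 ± 0.15, adjusted p = 0.00854 in edgeR) and not on days 14 and 21 (0.39 and 0.19). That call rests near the fold limit, and DESeq2 gave 0.58 for it, 4 of 8 fits without 1 library lost it, and among libraries under 2.5% mitochondrial counts the change was 0.37 (adjusted p = 0.156 in edgeR). The log2 ratio of Slc16a3 to Slc16a1 was lower than on day 0 by 0.98, 0.95 and 0.92, with exact permutation p of 0.0571, 0.0286 and 0.114 and adjusted p of 0.152, 0.137 and 0.229. Slc16a7, the carrier MCT2, which has a high affinity for lactate and pyruvate, was called lower on days 14 and 21 (-1.13 and -1.19).

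Of the 8 pairs of a gene with its partner for the same step, the log2 ratio of the others shifted less or rested on low counts. Hk2 to Hk1 changed by -0.12, -0.24 and -0.27, and Pfkp to Pfkl by 0.05, 0.05 and 0.08. Eno1 to Eno2, the neuronal enolase with at most 162 counts, changed by 0.98, 0.66 and 0.17, and Eno2 itself was called higher on day 21 (0.96), a call lost in 2 of 7 fits without 1 library. Aldoa to Aldoc changed by -0.47, -0.64 and -0.03, and Pkm to Pklr by 0.09, 1.05 and 1.01. The exact p of these 15 tests was between 0.0571 and 0.971.

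A single test of any difference among the 4 days found Pfkfb3, Pgk1, Eno1, Pkm and Ldha under an adjusted p of 0.05, 5 of 10 genes where 39.9% of all tested genes passed. Their adjusted p values were 0.00169, 0.00567, 0.00265, 0.0192 and 0.00378 in edgeR. In the comparisons between bleomycin days, none of the 10 genes was called from day 7 to day 14, where 6.00% of all tested genes were called in either direction, nor from day 7 to day 21, where 9.54% were. From day 14 to day 21 edgeR called 0 (0%) of all tested genes, with 1714 genes at an unadjusted p under 0.05. The widest of these changes was that of Pfkfb3 from day 14 to day 21, 0.46 ± 0.16 (unadjusted p = 0.00901, adjusted p = 0.370 in edgeR).

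The spread within day 14 was shared by several of the genes. Replicates 1 and 2 had the higher values of Slc2a1, Hk2, Aldoa, Pgk1, Eno1, Pkm and Ldha, and Eno1 on that day ranged from 222.7 to 472.8 CPM beside 246.5 to 306.0 CPM on day 7. With replicates 3 and 4 alone, an alternative chosen after seeing the data, the day 14 log2 changes were 0.66 for Eno1, 0.43 for Pgk1, 0.31 for Pkm and 0.41 for Ldha, and only Eno1 (adjusted p = 0.0141 in edgeR) and Pfkfb3 (-0.98, adjusted p = 0.00222) were called. The scar-associated macrophage markers Spp1, Trem2, Gpnmb, Cd9 and Fabp5 summed to 4683 and 3307 CPM in replicates 1 and 2 and to 1987 and 2178 CPM in replicates 3 and 4. Most of this sum was Spp1 (3778, 2260.1, 1275 and 1284 CPM), and of the 5 markers Spp1 and Trem2 were higher in both replicates 1 and 2 than in replicates 3 and 4, while Gpnmb, Cd9 and Fabp5 were not. The alveolar macrophage markers summed to 1844 and 3317 CPM in replicates 1 and 2 and to 905.9 and 825.8 CPM in replicates 3 and 4. Most of this sum was Chil3 (1777, 2850, 842.6 and 776.4 CPM), and Marco followed the same split. Krt79, Siglecf and Pparg did not follow it, with Krt79 and Siglecf lowest in replicate 1. The activated fibroblast markers were at 17310 CPM in replicate 1 and at 5008 to 6275 CPM in the others. On day 21 replicate 2 was the lowest library for Pgk1, Eno1, Pkm and Ldha and had 1832 CPM of the scar-associated macrophage markers beside 4745 and 4410 CPM. Chil3 was also lowest there (1079.9 CPM beside 2269 and 1408 CPM), and Krt79 was highest there (0.684 CPM beside 0.124 and 0.471 CPM). Whether these cells carry the glycolytic transcripts was not tested.

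**Figure D4:**
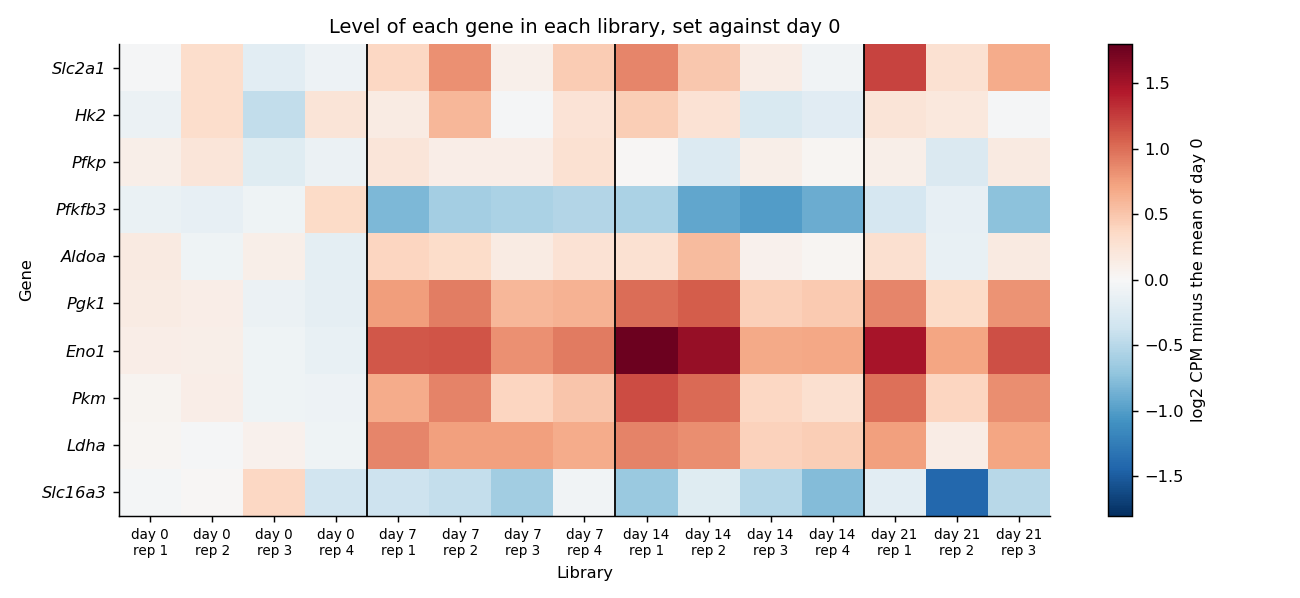
Log2 CPM of each of the 10 genes in each library, minus its mean over the day 0 libraries, with red for higher and blue for lower. Pgk1, Eno1, Pkm and Ldha are red in every library after bleomycin, Eno1 most of all in day 14 replicates 1 and 2, while Pfkfb3 is blue throughout days 7, 14 and 21 and Pfkp stays pale.

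Markers of other cells also moved with the days. Activated fibroblast markers (Col1a1, Col3a1, Postn, Cthrc1 and Fn1) were called higher in 3, 5 and 5 of 5 on days 7, 14 and 21, from 1022 to 1527 CPM in sum on day 0 to 5008 to 17310 CPM on day 14. Scar-associated macrophage markers were called higher in 3, 4 and 3 of 5. All 5 markers of dividing cells were called higher on each day, with 25.8 to 46.2 CPM on day 0 and 142.5 to 204.9 CPM on day 7. In the other direction, alveolar type 2 markers were called lower in 0, 3 and 5 of 5, erythroid markers in 3, 5 and 5 of 5, neutrophil markers in 4, 2 and 4 of 5, and endothelial markers in 1, 2 and 1 of 5. Monocyte and macrophage markers were called higher in 2, 3 and 2 of 5, lymphocyte markers lower in 0, 3 and 2 of 5, and alveolar type 1 markers lower in 1, 0 and 2 of 5. Alveolar macrophage markers were called higher in 0, 1 and 0 of 5 and lower in 1, 1 and 2 of 5. Over all tested genes, 8.78%, 12.0% and 12.4% were called higher on the 3 days and 7.36%, 11.2% and 10.1% lower. No marker of these lists was at 0 in a whole group, and their part in the 10 genes' changes was not tested.

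The mitochondrial share was set beside the calls as well. Among libraries under 2.5% mitochondrial counts, day 0 replicates 1 and 2 against all 4 day 7 libraries, the log2 change was 0.88 for Eno1 (adjusted p = 0.00223) and 0.73 for Ldha (adjusted p = 0.00248) in edgeR, both called. Those of Pgk1 (0.58), Pkm (0.52) and Pfkfb3 (-0.51) passed the adjusted p and not the fold limit. Among libraries over 3.5%, day 0 replicates 3 and 4 against day 14 replicates 2 to 4, Eno1 (1.15), Pgk1 (0.82) and Pfkfb3 (-1.11) were called, and Pkm (0.68) and Ldha (0.57) were not. With the share as a covariate over all 15 libraries, Ldha (0.68) and Pfkfb3 (-0.62) were the genes called on day 7. The day 7 calls of Eno1 (0.79, adjusted p = 0.0691), Pgk1 (0.57, adjusted p = 0.0661) and Pkm (0.44, adjusted p = 0.233) were lost in that edgeR fit, while the calls of days 14 and 21 were 5 and 4 as before.

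Per kilobase of annotated exon, which allows levels of different genes to be compared, the order on day 0 was Aldoa, Ldha (79.2), Pkm (64.1), Pgk1 (43.6), Eno1 (25.9), Pfkfb3 (22.6), Slc2a1 (9.03), Slc16a3 (6.13), Hk2 (6.04) and Pfkp (5.83 CPM per kb). Neighbours overlapped between Eno1 and Pfkfb3 and among the last 3. On day 14 Eno1 stood at 61.9 ± 23.8 CPM per kb and Pfkfb3 at 12.5 ± 1.8, and these no longer overlapped, while the first 5 genes each overlapped with their neighbours in the order. The mean of Slc16a3 was the lowest on all 3 days after bleomycin, overlapping with Pfkp on days 14 and 21. The exon length is the union over all transcripts of a gene, and exon use was not measured.

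**Figure D5:**
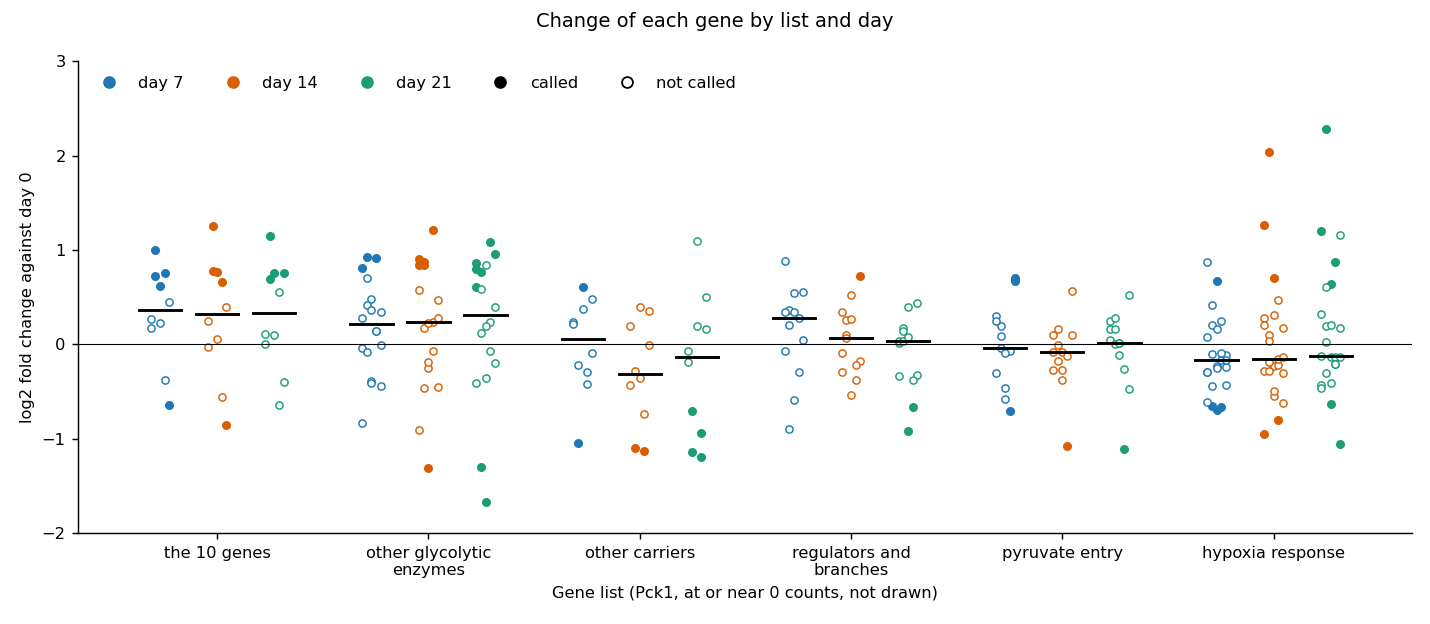
Log2 fold change against day 0 of each tested gene in 6 gene lists on days 7, 14 and 21, with a bar at the median and Pck1 left out of both. Filled points were called; the highest points are those of Ankrd37 in the hypoxia list at 2.03 and 2.28, and the lowest those of Ldhb at -1.31 and -1.67.

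The other genes of the pathway were taken as whole lists. Of 20 other glycolytic enzymes, 18 were tested, and 3, 5 and 6 were called higher on days 7, 14 and 21, where 8.78%, 12.0% and 12.4% of all tested genes were. Of the same 18, 0, 1 and 2 were called lower, where 7.36%, 11.2% and 10.1% of all tested genes were, with median log2 changes of 0.21, 0.24 and 0.31. Besides Gapdh, Pgam1, Eno1b, Hk3, Aldoc, Eno2 and Ldhb, the called genes were Adpgk, an ADP-dependent glucokinase (0.61 on day 21), and Hkdc1, a hexokinase-related gene (-1.29 on day 21). Of 10 other carriers, 1, 0 and 0 were called higher and 1, 2 and 4 lower, beside the same shares over all genes, and the day 7 counts are near them. The lower ones not yet named were Slc2a6 (-0.94), a glucose carrier of the lysosome, and Emb (-0.71), the embigin partner of the monocarboxylate carriers, both on day 21.

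Of 15 genes of regulation and competing routes, 14 were tested, and 0, 1 and 0 were called higher and 0, 1 and 2 lower on days 7, 14 and 21, beside the same shares over all genes. Pgd, 6-phosphogluconate dehydrogenase of the pentose phosphate pathway, was called higher on day 14 (0.72), and Gpd1, the cytosolic glycerol-3-phosphate dehydrogenase, lower on day 21 (-0.67) together with Pfkfb2. Pck1, the gluconeogenic phosphoenolpyruvate carboxykinase, had 0 to 1.63 CPM on day 0 and 0 counts in all day 14 libraries, which is at least 20.2-fold lower when the day 14 group is set at a floor of 3 counts. Adipocyte markers moved with it, from 1.55 to 51.6 CPM in sum on day 0 to 0.401 to 0.650 CPM on day 14, and their part was not tested. The median of this list was 0.24, -0.01 and 0.03, also with Pck1 at its bound on day 14.

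Pyruvate entry into mitochondria showed 1 gene that fell on every day. Pdk2, a kinase that switches off pyruvate dehydrogenase, stood at 48.9 to 63.1 CPM on day 0 and at 22.3 to 37.8 CPM afterwards, with log2 changes of -0.70, -1.08 and -1.11. Pdk3, another of these kinases, rose on day 7 (0.71), as did Pcx, pyruvate carboxylase (0.68). The other 10 of the 13 genes, which include Mpc1, Mpc2 and the pyruvate dehydrogenase subunits, were called on no day. In all, 2, 0 and 0 of the 13 were called higher and 1, 1 and 1 lower on days 7, 14 and 21, beside 8.78%, 12.0% and 12.4% higher and 7.36%, 11.2% and 10.1% lower over all tested genes. The median log2 change of the list was -0.04, -0.08 and 0.02.

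Of 23 genes of the hypoxia response outside glycolysis, all tested, 1, 3 and 4 were called higher on days 7, 14 and 21, where 8.78%, 12.0% and 12.4% of all tested genes were, and 3, 2 and 2 were called lower, where 7.36%, 11.2% and 10.1% were. These counts lie near the shares over all genes, and the medians were -0.16, -0.15 and -0.12. Hif1a itself rose from 66.7 to 73.7 CPM on day 0 to 95.7 to 145.5 CPM afterwards, with log2 changes of 0.67, 0.70 and 0.64, called on all 3 days. Ankrd37, a target of Hif1a, stood at 1.29 to 2.06 CPM on day 0 and was called higher on days 14 and 21 (2.03 and 2.28). Adm, adrenomedullin, was called on both of these days (1.26 and 1.20) and Ndrg1 on day 21 (0.87). Lower calls went to Bnip3, a mitophagy receptor, on days 7 and 14 (-0.66 and -0.80), Kdm3a, a histone demethylase, on day 7 (-0.65), and Mxi1, a Myc antagonist, on day 7 (-0.69). Epas1, which encodes HIF-2 alpha and is abundant in lung endothelium, was called lower on day 14 (-0.95), and Egln1, an oxygen-sensing prolyl hydroxylase (-0.63), and P4ha1, a collagen prolyl hydroxylase (-1.05), on day 21.

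The genes nearest to each called member over the 15 libraries were found by the root mean square difference of log2 CPM after subtracting the day 0 mean, a description without a test. For Pgk1 they were Timm23 (0.099) and Ran (0.106), for Pkm Timm23 (0.105) and Pgk1 (0.107), and for Eno1 Uxs1 (0.150) and Eno1b (0.161). For Ldha they were Nipsnap3b (0.101) and Ranbp1 (0.111). Slc2a1 was nearest to Aebp1 (0.156) and Sfxn1 (0.168), and Pfkfb3 to Rora (0.126) and Mtus1 (0.157).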

How the data were processed

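Whole-lung RNA of 15 mouse libraries was sequenced as paired reads of 150 bases. Per the submitters' processing notes and the study's methods, the authors used TrimGalore for trimming and HISAT2 2.1.0 for alignment to GRCm38, and made the deposited table of raw counts per gene with HTSeq 0.6.0, leaving out reads with several alignments, and the notes also name DESeq2 1.40.2. The annotation release and the strand setting are not given in the sources used here. The table had 0 per-sample columns that were left unused, and held 15652008 to 18020661 counts per library, with 211 or more counts of every gene of interest, so precision was limited by the spread between libraries (common biological coefficient of variation 22.8%).

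Genes were filtered with filterByExpr and scaled by TMM, and 1 model over the 4 days was fitted with edgeR 4.0.16 (quasi-likelihood test, limma 3.58.1, R 4.3.3). Called means a Benjamini-Hochberg adjusted p under 0.05 over all 17457 tested genes and a fold over 1.5. CPM used TMM library sizes, and levels per kb the union of exons in GENCODE M21, which named 33267 of 33340 identifiers. Ratios of paired genes had 0.5 counts added and an exact permutation test over libraries. Near-identical stretches were sought with blastn 2.17.0+ (150 bases or more at 98% identity or more). The fits were tested on simulated counts.

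All 10 genes were named, with the partner genes, the called genes of the lists and the nearest genes of each called member. The 10 genes and the lists, among them 14 lists of cell type markers with 5 genes each, were chosen with earlier results of these data known. Replicate numbers were not treated as pairs. Alternatives were total count and RLE scaling, other filters, limma voom, DESeq2 1.42.0, glmTreat, the mitochondrial share as a covariate or a stratum, a replicate block, 2 groups alone, another pseudocount, and leaving out each library in turn.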

Additional observations from a re-analysis of the deposited data

Results flagged for a closer look

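In a test for 1 library standing apart from the other 3 of its day (Dixon's ratio), 2 of 54 groups of 4 libraries were flagged, where chance flags about 5%. Pfkfb3 was at 215.1 CPM in day 0 replicate 4, beside 152.7 to 159.9 CPM in the other day 0 libraries. This is the library whose treatment field names bleomycin. Its Pfkfb3 level lay farther from the later days than those of the other controls. Its Slc2a3 (14.8 CPM) and Ldhb (144.8 CPM) levels lay nearest to them, and its neutrophil marker sum (388 CPM) was the lowest of day 0. Its sums of scar-associated macrophage (434.5 CPM), dividing-cell (27.3 CPM) and activated fibroblast (1388 CPM) markers lay within the range of the other controls. Which treatment it had was not tested. Ldhb was at 77.6 CPM in day 14 replicate 4, beside 62.6 to 63.1 CPM in the other day 14 libraries.

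Among the 10 genes and their partner genes, the change from day 0 differed between days for Ldhb and Eno2 in edgeR's test of 1 bleomycin day against another. Of the other genes in the pathway and hypoxia lists, Slc16a7, Gpd1 (both lower) and Ankrd37 (higher) were also called from day 7 to both later days. Hkdc1, Pcx (lower), Ndrg1 and Kdm3a (higher) were called from day 7 to day 21. Genes of the cell type marker lists were called between these days too and are not named here. Ldhb was lower on day 14 than on day 7, by a log2 change of -0.90 (adjusted p = 0.00128), and lower on day 21 than on day 7, by -1.26 (adjusted p = 9.62e-05). Eno2 was higher on day 21 than on day 7, by 0.96 (adjusted p = 0.0307), at 3.35 to 5.41 CPM on day 7 and 5.07 to 10.0 CPM on day 21.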

How the results depend on the processing

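The counts of called genes among the 10 stayed within 1.5 times of 5, 5 and 4 on days 7, 14 and 21 under total count and RLE scaling, limma voom, both other filters, DESeq2, 2 groups alone and the replicate block. Requiring a fold significantly over 1.5 (glmTreat) left 0 on day 7, 1 on day 14 and 1 on day 21. Adding the share of mitochondrial counts to the model, or keeping to libraries under 2.5%, left 2 on day 7. Within libraries over 3.5%, day 14 had 3, and without day 14 replicates 1 and 2, chosen after seeing the data, 2. Leaving out 1 library gave 3 to 5 on day 7 (3 without day 0 replicate 4). It gave 3 to 6 on day 14 (3 without day 14 replicate 1) and 2 to 5 on day 21. Without day 21 replicate 1 the 2 were Eno1 (higher) and Slc16a3 (lower). Without day 21 replicate 3 they were Eno1 and Pgk1 (both higher). Between bleomycin days, 0 were called under every alternative run. Eno1 kept its day 14 and day 21 calls under each alternative run.

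The replicate block changed no count (5, 5 and 4, and 5 for any difference among days). Deviations of libraries that share a number correlated at -0.234 to 0.381, so the numbers were not treated as pairs.

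Reversed signs were all of uncalled values near 0. Day 7 Eno2 was 0.010 with voom, 0.16 with the covariate, 0.32 within low-share libraries, and -0.20 to 0.11 leaving out 1 library. Day 14 Hk2 was -0.28 without replicates 1 and 2 and -0.10 to 0.16 leaving out 1, Pfkp 0.0022 with the covariate, 0.12 within high-share libraries, 0.040 without those replicates and -0.12 to 0.024 leaving out 1, and Pfkl 0.0099 within high-share libraries. The value for Pfkp, day 21 against day 0, was -0.020 with RLE, -0.022 with a mean of at least 1 CPM, -0.021 with DESeq2, -0.040 with no filter, -0.000925 with the block, -0.026 with 2 groups alone and -0.12 to 0.083 leaving out 1. Day 21 leave-one-out ranges that crossed 0 were -0.056 to 0.18 for Hk2, -0.015 to 0.18 for Aldoa and -0.082 to 0.31 for Aldoc, and those of log2 ratios were -0.026 to 0.12 (Pfkp to Pfkl, day 7), -0.20 to 0.41 (Pkm to Pklr, day 7) and -0.39 to 0.21 (Aldoa to Aldoc, day 21). The cause was not tested.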
